A study of Rattus norvegicus with 64 samples.

Results

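The transcripts that differ between livers collected 10 h and 5 h after a vehicle dose are described here, in rats that received no acetaminophen. The members are the libraries labelled liver and vehicle, 16 of the 64 in the series: 8 at 10 h and 8 at 5 h. All came from Sprague Dawley rats, an outbred laboratory strain. The vehicle was polyethylene glycol, a water-soluble polymer used to carry poorly soluble drugs, at 50% and 6 ml/kg. Rats of the acetaminophen groups, also 8 per tissue and time, received a single dose of 2 g/kg, and kidney was taken from the same 32 rats. Age, sex, feeding and the clock time of dosing were not given in the sources used here. Messenger RNA was selected by its poly-A tail and sequenced from 1 end.

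Liver takes up nutrients after a meal, releases glucose during a fast, and makes bile and most plasma proteins. In rodents many liver transcripts are known to follow the time of day, through a clock in which activator proteins switch on genes for their own repressors, and others follow meals. Rats killed at different times after dosing also differ in clock time, in time since handling and in time since the last meal unless these are balanced. These cannot be told apart here. Levels were given per Ensembl transcript, and no source used here links these identifiers to gene symbols, so no gene is named and no role is given to any transcript. The transcripts are described by their levels, lengths and tissue distribution, and 4 of them by identifier. In bulk tissue, fewer cells of a type and less RNA per cell cannot be told apart.

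The 16 vehicle livers held from 21467448 to 29496773 estimated counts. Over all transcripts, each correlated better with every other liver (lowest r = 0.958, on log2(TPM + 1)) than with any kidney (highest r = 0.838), so the tissue labels match the data. 1 library stood apart from the other vehicle livers. In 5 h vehicle replicate 6, 10350 transcripts reached 1 TPM, against 11388 to 11802 in the other 5 h vehicle livers. Its 10 most abundant transcripts held 28.3% of the counts, against 21.6% to 24.5%, and its slope on transcript length was -0.13, against -0.00461 to 0.0602 log2 units per doubling of length. It is library number 30. The acetaminophen livers numbered 28, 29 and 32 had slopes of -0.198, -0.0867 and -0.0974 and 10218, 10616 and 10640 transcripts at 1 TPM. The other acetaminophen livers had slopes of -0.0414 or higher and at least 10664 such transcripts. Whether these values share a cause was not tested. A response score was taken from the 168 transcripts that rose and the 250 that fell by a log2 change of at least 1 with acetaminophen in the 10 h livers, as the mean log2 CPM of the first list minus that of the second. The 5 h livers took no part in choosing those transcripts. The score was 0.90 in 5 h vehicle replicate 6, from -0.61 to 0.07 in the other 7 vehicle livers of 5 h, and from 0.38 to 1.36 in the 8 acetaminophen livers of 5 h. The highest of those 7, 0.07, was replicate 8. The library labelled vehicle replicate 6 therefore lay inside the acetaminophen range by this score, and the values without it are given beside those that rest on it.

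**Figure D1:**
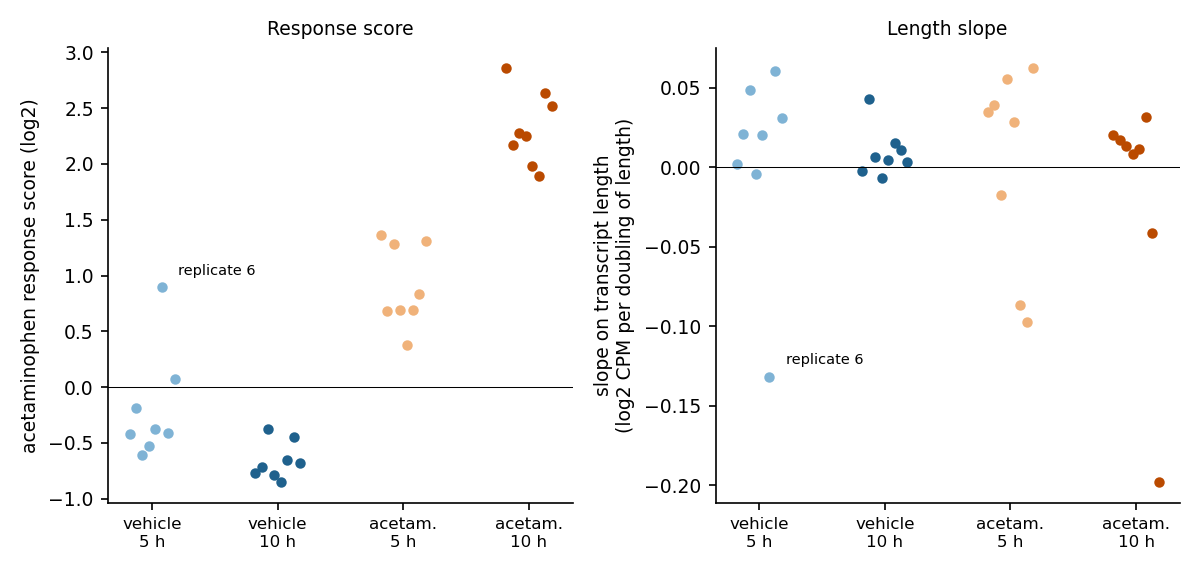
Acetaminophen response score (left, log2 units) and slope on transcript length (right, log2 CPM per doubling of length) in the 32 livers, 1 point per library. Vehicle replicate 6 of 5 h lies at 0.90 on the score, inside the range of the 5 h acetaminophen livers (0.38 to 1.36), and at -0.13 on the slope.

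No library-level difference between the 10 h and the 5 h vehicle livers passed its test. Over 5 values (estimated counts, transcripts at 1 TPM, share of the 10 most abundant transcripts, length slope, and share of counts in kidney-enriched transcripts), the smallest two-sided exact permutation p was 0.222, for estimated counts, with an adjusted p of 0.546. Without replicate 6 the number of transcripts at 1 TPM was 11242 ± 265 at 10 h (SD, n = 8) and 11557 ± 152 at 5 h (SD, n = 7), with exact permutation p = 0.0165 and adjusted p = 0.0824. Kidney-enriched transcripts held 0.222% to 0.281% of the counts at 10 h and 0.229% to 0.315% at 5 h, so the ranges overlapped. The highest of these values belonged to 5 h replicate 8.

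The comparison asked which liver transcripts differed between the collection times without acetaminophen. At 10 h, 197 of 14943 transcripts tested were higher (1.32%) and 290 lower (1.94%), 487 in all (3.26%), by edgeR's quasi-likelihood test at an adjusted p under 0.05. Rises had a median size of 0.75 (log2) and falls one of -0.59, against -0.01 for everything tested. At least a doubling or halving (log2 of 1) was reached by 62 rises and 65 falls, while 48 and 113 were smaller than 0.5. Standard errors had a median of 0.19. An unadjusted p under 0.05 was found for 2569 transcripts. The split between rises and falls differed between edgeR and limma on TPM. From the deposited TPM, not rescaled between libraries, limma called 914 transcripts and placed 15.6% of them higher at 10 h, against 40.5% by edgeR. The median of all changes was -0.07 in that limma fit. With only the scaling changed, to the size factors of DESeq2, edgeR called 187 higher and 292 lower, beside 197 and 290. The limma fit on TPM differs in scaling, transform and model together, and their parts were not tested separately.

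**Figure D2:**
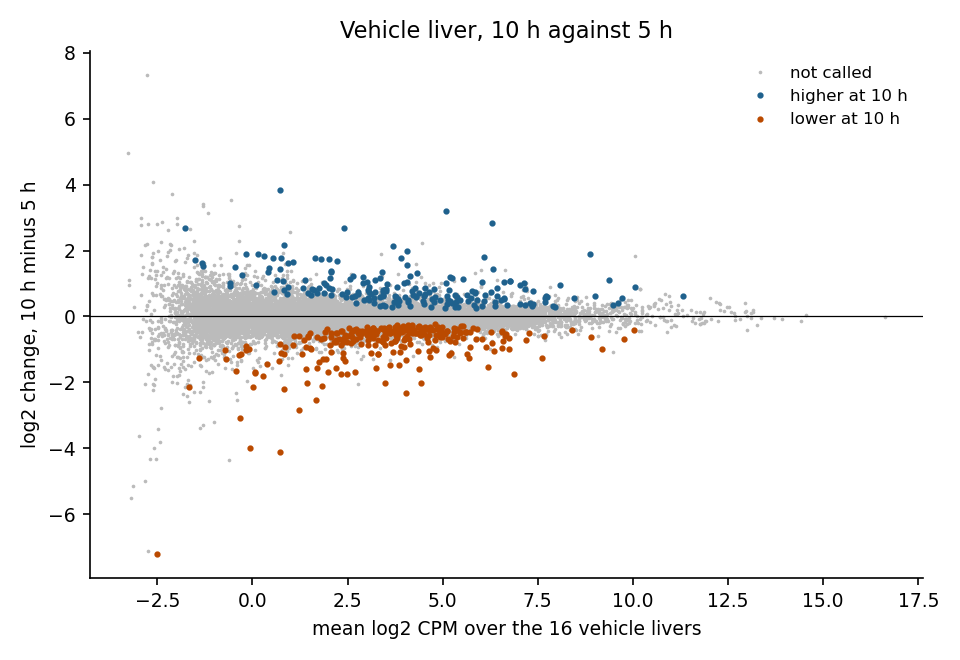
Log2 change between 10 h and 5 h in vehicle liver (vertical axis) against the mean log2 CPM over the 16 libraries (horizontal axis), 1 point per transcript tested. Coloured points are the 197 transcripts called higher and the 290 called lower at 10 h.

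Together the called transcripts held a small part of the estimated counts. The rises summed to 1.24% ± 0.190 of the estimated counts at 5 h and 1.96% ± 0.120 at 10 h (SD, n = 8 each). The falls summed to 1.26% ± 0.125 at 5 h and 0.771% ± 0.0891 at 10 h (SD, n = 8 each). These shares describe transcripts chosen on the same libraries and are no test. The 8 libraries of one time did not overlap with the 8 of the other for 123 of 14943 transcripts (0.823%): 52 had their 10 h values above and 71 below. Of these, 39 and 60 were also called. Without replicate 6, 88 were higher and 123 lower without overlap, which fewer libraries make easier to reach. Among called transcripts, 0 were absent from all 5 h livers and 1 was at 0 in all 10 h livers.

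Both collection times held libraries that lay between the groups. For each called transcript, a library was set on the 10 h side or the 5 h side of the midpoint between the group means of log2 CPM. The transcripts were chosen on these same libraries, so the numbers are a description. Of the 290 transcripts that fell, 5 to 101 lay on the 10 h side in the single 5 h livers, with the highest number in replicate 4, and 179 to 282 in the 10 h livers, with the lowest in replicate 3. Of the 197 that rose, 5 to 59 lay on the 10 h side in the 5 h livers and 130 to 191 in the 10 h livers, and replicates 4 and 3 were again the extremes. Replicate 6 of 5 h had 28 rises and 44 falls on the 10 h side. On the lists made without it, with the midpoint also taken without it, it lay on the 10 h side for 93 of 225 rises (41.3%) and 102 of 274 falls (37.2%). The within-group SD of log2 CPM had a median over transcripts of 0.38 at 5 h, 0.28 at 5 h without replicate 6, and 0.26 at 10 h.

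The count of called transcripts moved with the libraries and the tool. It was 500 (3.32% of 15063 tested) without 5 h replicate 6, with 226 higher and 274 lower, and 159 of the 197 rises and 220 of the 290 falls were called in both fits. It was 307 without 10 h replicate 5 and 312 without 5 h replicate 2. Of the original calls, 94 rises and 155 falls were called in each of the 16 fits that left out 1 vehicle liver. No transcript changed direction among the calls of any alternative. DESeq2, with 833 calls, and limma voom with library weights, with 1671 calls, gave longer lists, and both held 193 of the 197 rises and 284 of the 290 falls. On log2(TPM + 1) limma called 285 of the falls but 119 of the rises, and on log2(TPM + 0.1) 286 and 105.

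**Figure D3:**
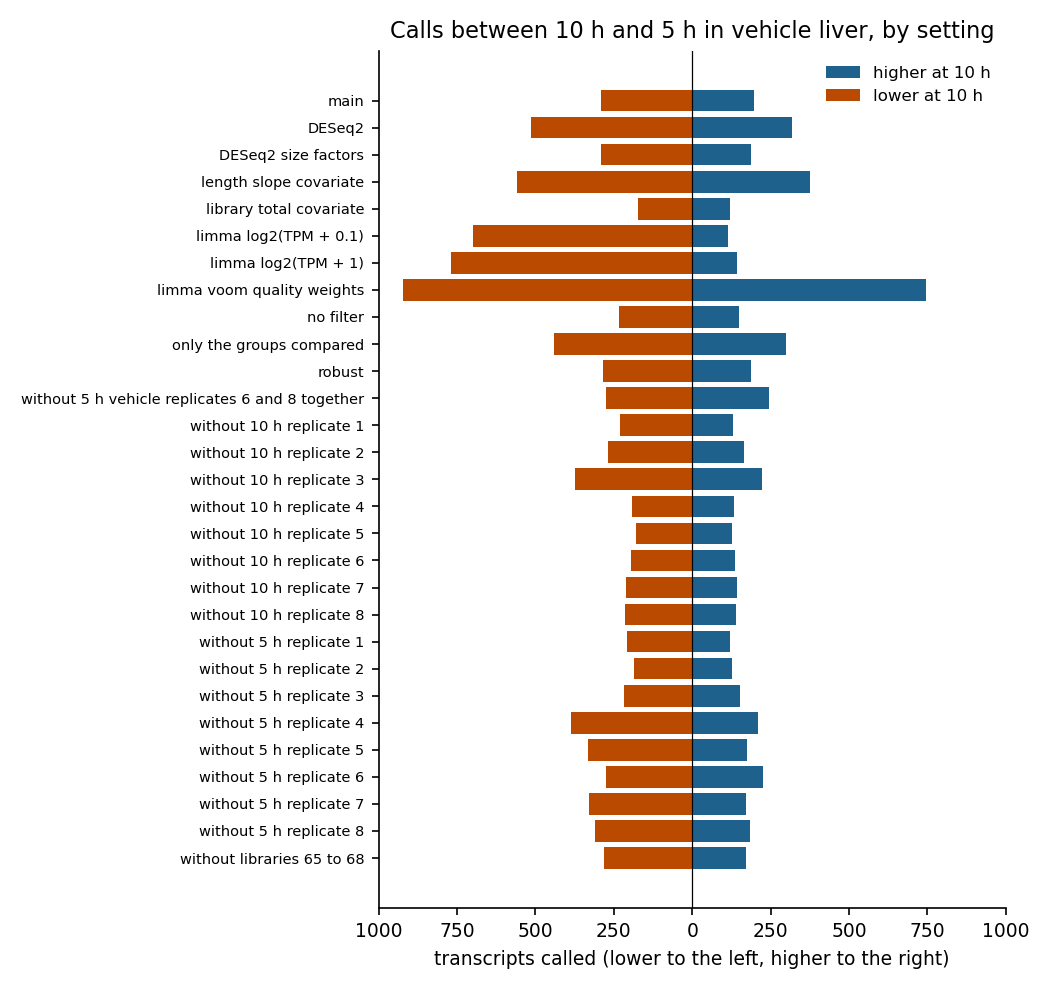
Number of transcripts called between 10 h and 5 h in vehicle liver (horizontal axis, lower to the left and higher to the right) under each setting (vertical axis). The uppermost bar is the reported result, with 197 higher and 290 lower; the limma fits on TPM have the smallest shares of rises (15.6% and 14.1%).

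Among the transcripts higher at 10 h, ENSRNOT00000035158 had the smallest p. This transcript of 2514 bases lay at 11.3, 32.3 and 68.2 CPM (lowest, median and highest of the 5 h livers; CPM are counts per 1000000, TMM-scaled) and at 84.2, 237 and 458 CPM in the 10 h livers. The groups did not overlap, and the highest 5 h library, replicate 8, came near the lowest 10 h library, replicate 3. It was 7.18-fold higher at 10 h, a log2 change of 2.84 ± 0.36 (standard error; edgeR's adjusted p = 3.28e-05), and the log2 change was 2.85 without replicate 6. In replicate 6 it was at 34.7 CPM, among the vehicle livers of 5 h, while the acetaminophen livers of that time began at 106 CPM. With acetaminophen it moved the other way between the times: it lay at 106, 265 and 565 CPM at 5 h and at 61.2, 92.2 and 148 CPM at 10 h, a log2 change of -1.58 ± 0.34 (edgeR adjusted p = 0.00218). The difference between the agents in the time effect was -4.43 ± 0.50 (SE; adjusted p by edgeR = 1.89e-06). The transcript was chosen on its vehicle-liver change, which enters that difference. In vehicle kidney it lay between 13.8 and 33.7 CPM at 5 h and between 9.04 and 31.0 CPM at 10 h, which overlapped (log2 change 0.11, edgeR adjusted p = 1.0).

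ENSRNOT00000045596, of 2238 bases, had the largest rise that met the naming rule. Its level was 7.48, 10.4 and 41.6 CPM in the 5 h livers and 24.2, 143 and 232 CPM in the 10 h livers (lowest, median, highest). A single 5 h library, replicate 8 at 41.6 CPM, overlapped the 10 h group, where replicates 3 and 8 stood at 31.6 and 24.2 CPM; the other 5 h livers ended at 14.7 CPM. The log2 change was 3.19 ± 0.60 (SE; adjusted p by edgeR = 0.00185), or 9.13-fold, and 3.15 without replicate 6. With acetaminophen the level was already spread from 9.17 to 348 CPM at 5 h, with a median of 95.2, and lay between 46.05 and 295 CPM at 10 h, with a median of 135. The log2 change between the times was -0.02 ± 0.55 there (SE; adjusted p by edgeR = 0.99), and the time effects differed by -3.21 ± 0.80 between the agents (SE; adjusted p by edgeR = 0.0145). The latter includes the vehicle-liver change on which the transcript was chosen. Vehicle kidneys lay between 65.5 and 122 CPM at 5 h and between 95.6 and 187 CPM at 10 h, a log2 change of 0.58 ± 0.20 that was not called (SE; adjusted p by edgeR = 0.512).

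Among the transcripts lower at 10 h, ENSRNOT00000002640, of 3219 bases, had the smallest p. The 5 h livers lay at 23.5, 43.7 and 82.4 CPM and the 10 h livers at 7.08, 10.1 and 16.8 CPM (lowest, median, highest), without overlap. It was 4.10-fold lower at 10 h, a log2 change of -2.03 ± 0.25 (SE; adjusted p by edgeR = 3.28e-05). Without replicate 6 the log2 change was -1.98. It fell with acetaminophen too, from a median of 47.5 CPM (29.8 to 84.7) to 15.8 CPM (10.98 to 31.5), a log2 change of -1.45 ± 0.24 (SE; adjusted p by edgeR = 1.21e-04). The difference between the agents in the time effect was 0.58 ± 0.34 (SE; adjusted p by edgeR = 0.356). In kidney the pattern was another one: the log2 change was 0.05 ± 0.14 with vehicle (SE; adjusted p by edgeR = 1.0) and 0.55 ± 0.14 with acetaminophen (SE; adjusted p by edgeR = 0.0336), a rise in the latter.

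ENSRNOT00000059571, of 4273 bases, had the largest fall that met the naming rule, and it fell in both organs. In the 5 h livers it lay at 0.491, 7.70 and 15.8 CPM and in the 10 h livers at 0.590, 1.03 and 1.57 CPM (lowest, median, highest). The groups overlapped through 2 libraries, 5 h replicates 6 and 8 at 1.26 and 0.491 CPM, while the other 5 h livers began at 6.43 CPM. The log2 change was -2.85 ± 0.47 (SE; adjusted p by edgeR = 3.85e-04), -3.01 without replicate 6 and -3.22 without both of those libraries; it was -1.01 on log2(TPM + 1), a scale that shrinks changes of scarce transcripts. Acetaminophen livers went from a median of 9.13 CPM (3.05 to 15.2) to 0.809 CPM (0.185 to 1.36), a log2 change of -3.57 ± 0.49 (SE; adjusted p by edgeR = 7.33e-06). Vehicle kidneys went from 6.09 CPM (3.95 to 7.56) to 1.98 CPM (1.53 to 2.85), a log2 change of -1.53 ± 0.18 (SE; adjusted p by edgeR = 1.31e-05). Acetaminophen kidneys went from 7.55 CPM (5.34 to 11.01) to 2.34 CPM (1.93 to 3.19), a log2 change of -1.68 ± 0.17 (SE; adjusted p by edgeR = 1.37e-06). In these 3 comparisons the 2 times did not overlap. The difference between the agents in the liver time effect was -0.73 ± 0.64 (SE; adjusted p by edgeR = 0.576).

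**Figure D4:**
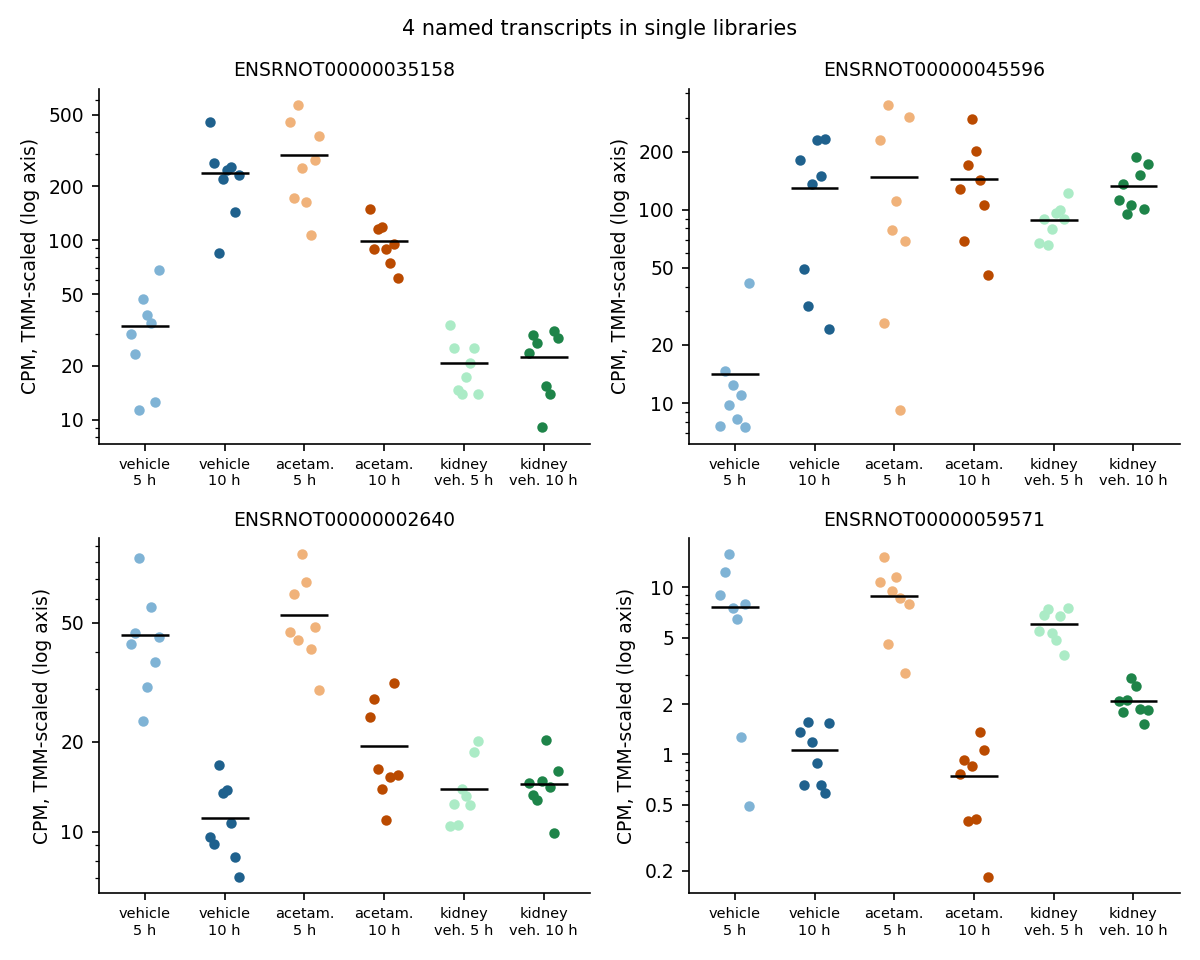
TMM-scaled CPM (log axis) of the 4 named transcripts in single libraries, with 1 point per library and a line at the group mean, for vehicle and acetaminophen livers and vehicle kidneys at 5 h and 10 h. The upper panels show transcripts higher at 10 h in vehicle liver; ENSRNOT00000059571 at the lower right was lower at 10 h in every group pair shown, with 5 h vehicle liver replicates 6 and 8 at 1.26 and 0.491 CPM.

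The 20 transcripts with the smallest p comprised 8 that rose and 12 that fell, with log2 changes from 0.63 to 2.84 and from -2.32 to -0.85. Of these 20, 13 were called in the same direction in the acetaminophen livers and 1, ENSRNOT00000035158, in the opposite one, where 6.99% of all transcripts were called higher and 4.72% lower. Of the 20 with the smallest p without replicate 6, of which 14 are shared, 12 were called there in the same direction and 1 in the opposite one.

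By abundance, rises outnumbered falls at high levels and falls outnumbered rises at middle levels, but on log2(TPM + 1) falls led at both. Of 1588 transcripts with a mean log2 CPM of 6 or more, 44 rose (2.77%) and 24 fell (1.51%), and of 7687 between 2 and 6, 113 rose (1.47%) and 215 fell (2.80%), beside 1.32% and 1.94% of all transcripts tested; on log2(TPM + 1) the same classes held 26 rises with 74 falls and 65 rises with 581 falls. Below 2, 40 rose (0.706%) and 51 fell (0.900%) of 5668, where the test has least precision: the median standard error was 0.44 below a log2 CPM of 0 and 0.12 between 4 and 6. Among the 200 most abundant transcripts 5 rose (2.5%) and 1 fell (0.5%), and their median log2 change was 0.05, but -0.06 on TPM. Without replicate 6, 10 of them rose and 0 fell, with a median of 0.12. That library is the one whose most abundant transcripts held the largest share of the counts.

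By annotated length, 4 rose (0.589%) and 1 fell (0.147%) of 679 transcripts under 500 bases, beside 1.32% and 1.94% of all transcripts tested. Between 500 and 1000 bases 13 rose (0.754%) and 18 fell (1.04%) of 1723, and up to 2000 bases 55 rose (1.08%) and 88 fell (1.72%) of 5102. Up to 4000 bases 81 rose (1.51%) and 143 fell (2.66%) of 5374, and above that 44 rose (2.13%) and 40 fell (1.94%) of 2065. The median log2 change lay between -0.03 and 0.06 over the 5 classes. On log2(TPM + 1) falls led in each class, with 5 rises and 8 falls under 500 bases and 33 rises and 60 falls above 4000. The median standard error was 0.25 under 500 bases and 0.18 between 2000 and 4000, so the test is less precise for the shortest transcripts. Without replicate 6, 76 rose and 66 fell among those of 1000 to 2000 bases. The length slope of the libraries was part of what set replicate 6 apart from the other vehicle livers. Its part in these calls was not tested beyond the fit with that slope as a covariate, which called 934 transcripts including all 487.

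By tissue distribution, transcripts at least 16 times more abundant in vehicle liver than in vehicle kidney numbered 433, of which 424 were tested, 10 rose (2.36%) and 7 fell (1.65%). Their median log2 change was 0.07 on the edgeR scale and -0.01 on TPM. On log2(TPM + 1) falls led among them, with 8 rises and 17 falls. Of 1764 kidney-enriched transcripts, 718 passed the filter on low counts in liver, and 4 rose and 4 fell (0.557% each). The test is less precise for them, with a median standard error of 0.32 beside 0.19 for all transcripts tested. On log2(TPM + 1) 8 of them rose and 12 fell. Of 3974 transcripts at similar levels in both organs (within 2 times), 3919 were tested, 75 rose (1.91%) and 88 fell (2.25%), beside 1.32% and 1.94% of all transcripts tested. On log2(TPM + 1) 42 of these rose and 231 fell. Without replicate 6, 15 rose and 8 fell among the liver-enriched, 9 and 6 among the kidney-enriched, and 76 and 88 among the shared transcripts.

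The same time comparison was made in the acetaminophen livers, which are other rats and share no library with the vehicle comparison, although the fit shares its estimate of the spread. There 1749 of 14943 transcripts differed (11.7%), with 1044 higher (6.99%) and 705 lower (4.72%) at 10 h; on log2(TPM + 1) 1536 were higher and 332 lower. Of the 197 transcripts that rose in vehicle liver, 62 rose there, which is 31.5% of the vehicle list and 5.94% of the acetaminophen list, and 2 fell. Of the 290 that fell in vehicle liver, 57 fell there, which is 19.7% of the vehicle list and 8.09% of the acetaminophen list, and 22 rose (7.59%, near the 6.99% of all transcripts). Their median log2 changes in acetaminophen liver were 0.24 for the first list and -0.11 for the second, beside -0.02 for all. The groups of 8 did not overlap in the same direction for 19 of the 197 (9.64%, beside 1.35% of all transcripts) and for 19 of the 290 (6.55%, beside 0.522%). With the vehicle list made without replicate 6, 73 of 225 rises rose, 64 of 274 falls fell, and 13 of those falls rose. With each agent fitted on its own libraries, the vehicle list had 300 rises and 440 falls. Of these, 18% and 12.05% were called in the same direction with acetaminophen, where 754 of 14011 transcripts were called higher and 430 lower. On log2(TPM + 1) the vehicle list had 143 rises and 771 falls, and the shares were 38.5% and 6.36%. On that scale 1536 of all 14943 transcripts were called higher with acetaminophen and 332 lower.

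Whether the time effect differed between the agents was tested in the same fit, and 829 transcripts differed (5.55%). The 10 h minus 5 h change was higher with acetaminophen for 563 of them and lower for 266; on log2(TPM + 1) these numbers were 1733 and 116. Without replicate 6 they were 532 and 262, or 794 in all. This test uses the vehicle livers too, so its calls are not set against the vehicle list here. The named transcripts show both outcomes, but they were chosen on their vehicle-liver change, which this test subtracts. The comparisons between agents at 5 h and 10 h use the same vehicle livers. Their p-values are therefore affected by that choice, and the values below are a description. For ENSRNOT00000035158 and ENSRNOT00000045596 the effects differed, and in both the acetaminophen livers of 5 h were above the vehicle livers of 5 h (log2 change 3.16 ± 0.37 and 3.38 ± 0.60, SE; edgeR adjusted p = 6.58e-07 and 2.54e-04). For ENSRNOT00000002640 and ENSRNOT00000059571 the difference did not pass the test, and at 5 h the agents differed by 0.23 ± 0.24 and 0.23 ± 0.42 (SE; adjusted p by edgeR = 0.59 and 0.782). At 10 h, acetaminophen minus vehicle was -1.27 ± 0.34 for ENSRNOT00000035158 and 0.81 ± 0.24 for ENSRNOT00000002640, both called (SE; adjusted p by edgeR = 0.010 and 0.0214). It was 0.17 ± 0.55 for ENSRNOT00000045596 and -0.50 ± 0.48 for ENSRNOT00000059571, neither called (SE; adjusted p by edgeR = 0.884 and 0.55).

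In the kidneys of the vehicle rats the same comparison called 7 of 17284 transcripts (0.0405%), 2 higher and 5 lower at 10 h, while 1002 had an unadjusted p under 0.05. DESeq2 called 48 and limma voom 64, and the edgeR count was 13 without 5 h vehicle kidney replicate 5 and 16 without replicate 8. Of these 7, 1 of the 2 rises and 2 of the 5 falls were also called in that direction in vehicle liver, among them ENSRNOT00000059571. Most members of both liver lists had the same sign in kidney. Of the 284 vehicle-liver falls measured in kidney, 237 had a negative log2 change there (83.5%, beside 54.5% of the 14432 transcripts tested in both organs), with a median of -0.09. Of 190 rises, 140 were positive (73.7%, beside 45.5%), with a median of 0.09. On log2(TPM + 1), where the median over all kidney transcripts was shifted to 0.04, 62.3% of the falls called there were negative and 88.4% of the rises positive. The shares over all transcripts on that scale are not given here, so these values cannot be set against 54.5% and 45.5%. With the lists made without liver replicate 6, 213 of 266 falls were negative and 164 of 218 rises positive. The kidney medians of -0.09 and 0.09 are far smaller in size than the liver medians of -0.58 and 0.75 over the same transcripts. The lists were chosen on those liver changes, so the 2 organs are not compared evenly. The 2 times did not overlap in vehicle kidney for 3 of the 190 rises, in the same direction (1.58%, beside 0.0624%), and for 2 of the 284 falls (0.704%, beside 0.0485%). Liver and kidney came from the same rats, but the labels do not tie libraries to rats.

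Kidneys of acetaminophen rats share neither rats nor libraries with the vehicle livers. There 209 of the 284 falls were negative (73.6%, beside 54.6% of all), with a median log2 change of -0.08, and 111 of the 190 rises were positive (58.4%, beside 45.4%), with a median of 0.04. With the lists made without liver replicate 6 these were 186 of 266 and 117 of 218. A change of the same sign in acetaminophen liver, vehicle kidney and acetaminophen kidney together was seen for 109 of the 284 falls (38.4%, beside 17.2% of all transcripts negative in all 3) and for 73 of the 190 rises (38.4%, beside 11.4% positive in all 3). Without liver replicate 6 it was seen for 109 of 266 falls and 79 of 218 rises. These are descriptions over transcripts, which are not independent of each other, and carry no test.

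**Figure D5:**
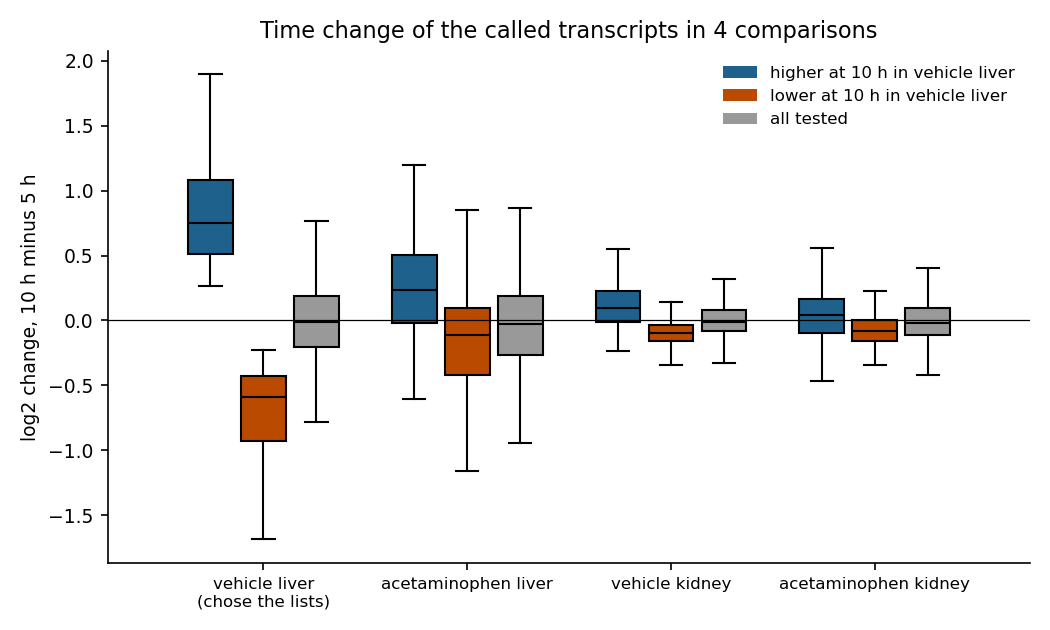
Log2 change between 10 h and 5 h (vertical axis) in vehicle liver, acetaminophen liver, vehicle kidney and acetaminophen kidney, for the transcripts higher or lower at 10 h in vehicle liver and for all tested. Boxes span the middle quartiles with the median as a line, whiskers reach 1.5 times that span and points beyond are not drawn; the vehicle liver boxes show the values that chose the lists, and in the other comparisons the list medians lie between -0.11 and 0.24.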

How the data were processed

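Each library has 1 deposited table, for which the submitters' processing notes name kallisto 0.42.4 and build Rnor_6.0. It gives, per the file headers, an estimated count for every transcript, without normalization, and TPM, which the authors' program scales by effective length and to 1000000 per library. All tables list the same 28420 transcripts, of which 0 occur in the reference table used here, so the planned gene lists and cell type markers could not be run. Members, groups and tests were chosen with earlier results of these data known. Groups come from the tissue, agent and time labels. Replicate numbers were assigned within each group in deposit order, only as names.

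Rounded estimated counts entered edgeR 4.0.16 (R 4.3.3): filterByExpr, TMM, then glmQLFit and glmQLFTest, two-sided, with Benjamini-Hochberg adjustment over all transcripts tested. The 32 livers made up 1 fit of 4 groups and the 32 kidneys another. The procedure was tested on simulated data, which held no deviating library such as replicate 6 and no effect of transcript length. Its outcome is not reported here. A standard error is the size of the log2 change over the root of F. Log2 CPM have a prior count of 2. Alternatives used DESeq2 1.42.0 and limma 3.58.1. Enriched transcripts have at least 1 TPM and 16 times the other organ's TPM (0.01 added). By the naming rule, each direction gives the call of smallest p and the largest call with all 8 libraries of 10 h on 1 side of the 5 h mean, both at a mean log2 CPM of at least 1. Library-level values were compared with exact permutation tests. Libraries within a group differed beyond sampling noise (chi-square per degree of freedom at least 20.6). kallisto divides reads shared by related transcripts, so a change of 1 transcript can come from such reads.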

Additional observations from a re-analysis of the deposited data

Results flagged for a closer look

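In 36 checks of groups of 8, 7 values lay far from the rest of their group, where chance gives about 1 in 20. For 5 h vehicle liver replicate 6 these were the transcripts at 1 TPM (10350), the share of the 10 most abundant transcripts (28.3%), the length slope (-0.13) and the acetaminophen response score (0.90). For 5 h vehicle liver replicate 8 they were the share of kidney-enriched transcripts, 0.315% against 0.229% to 0.268% in the others, and ENSRNOT00000045596 at 41.6 CPM, against 7.48 to 14.7. The length slope of 10 h vehicle liver replicate 2 was 0.0431, against -0.00676 to 0.0153. The time effect differed between acetaminophen and vehicle liver for 829 transcripts, among them ENSRNOT00000035158 (difference -4.43, edgeR adjusted p = 1.89e-06) and ENSRNOT00000045596 (difference -3.21, edgeR adjusted p = 0.0145). Both were named for their vehicle-liver change, which is part of the difference, so these p-values are affected by that choice.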

How the results depend on the processing

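The 487 calls in vehicle liver became 833 by DESeq2, 914 and 815 on log2(TPM + 1) and log2(TPM + 0.1), 1671 by limma voom with library weights, 740 when the 16 libraries were fitted alone, and 292 after adjustment for library totals. They became 934 with the length slope as a covariate, an alternative chosen after seeing the data. The share of calls higher at 10 h, 40.5%, was 15.6% and 14.1% on TPM and 47.01% without 5 h replicates 6 and 8. Leaving out single vehicle livers gave 307 to 596 calls and a share of 34.3% to 45.2%. The libraries numbered 65 to 68 were all of 5 h and include vehicle liver replicates 7 and 8. Without these libraries 453 transcripts were called, 173 higher and 280 lower. Whether they were handled apart from the others was not tested. The vehicle livers of 10 h were numbered from 2 to 21, and those of 5 h were numbered 3, 5, 10, 23, 24, 30, 66 and 67. Collection time and library number therefore partly go together in this comparison. Leaving out 65 to 68 does not separate them. The difference between the agents gave 1849 and 1822 calls on TPM and 1258 by limma voom, and 622 to 985 with single livers left out. The acetaminophen liver count moved within 1.5 times, from 1387 to 1867 with single livers left out. The 7 calls in vehicle kidney became 64 by limma voom, 48 by DESeq2, 11 when fitted alone and 5 to 16 with single libraries left out. Falls negative in vehicle kidney made up 62.3% to 85.1% of the list over 10 alternatives, and rises positive 71.3% to 89.2%. The 62.3% and the 89.2% come from fits on TPM, for which the shares over all transcripts are not given here. Each of the 4 named transcripts kept its direction and its call in all 28 alternatives. The causes were not tested. No paired analysis was possible because the replicate numbers used here are only names in deposit order, and the labels number every library differently. The fit of only the groups compared is the same as the reported fit for the difference between the agents. Summing counts per gene was not run, since transcripts could not be paired with genes.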
